A study of Schizosaccharomyces pombe with 9 samples.

Results

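The genes described here are the 8 core genes of the fission yeast RNA interference (RNAi) machinery: ago1 (SPCC736.11), chp1 (SPAC18G6.02c), tas3 (SPBC83.03c), rdp1 (SPAC6F12.09), hrr1 (SPCC1739.03), cid12 (SPCC663.12), dcr1 (SPCC188.13c) and eri1 (SPBC30B4.08). They were picked by their identifiers from the 4915 genes of the count table, with earlier results of these data known. All 8 were in the table and all 8 passed the filter on low counts. Polyadenylated RNA was sequenced from Schizosaccharomyces pombe grown to log phase at 32 °C in the rich medium YEA. The genotypes are tetr-mit1, tetr-mit1k587a and tetrmit1_clr4oe, written TetR-Mit1, K587A and clr4oe below. All of them carry a fusion of the Tet repressor to the chromatin remodeler Mit1, and no strain without the fusion is among them. In K587A the fusion carries the K587A amino acid change, which lies in the remodeler's ATPase domain, and clr4oe keeps the unsubstituted fusion and adds an overexpression of clr4, as the label reads. Analysed here were 3 libraries each of TetR-Mit1 and K587A and 2 of clr4oe. Each genotype is represented by 1 strain number, so strain and genotype cannot be told apart. The labels do not say whether the libraries of a genotype came from separate cultures, so p-values measure the spread between these libraries, which may be technical. In bulk RNA, a level that differs in all cells and one that differs in a fraction of them cannot be told apart.

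RNAi in this yeast turns transcripts of heterochromatic repeats into small interfering RNAs (siRNAs) that guide silencing factors back to the same loci. Dicer (Dcr1) cuts double-stranded RNA into siRNAs, and Argonaute (Ago1) carries them in the RITS complex together with the chromodomain protein Chp1 and the bridging protein Tas3. Chp1 binds histone H3 methylated at lysine 9, the mark written by Clr4, which ties RITS to chromatin. The RNA-directed RNA polymerase complex, made of the polymerase Rdp1, the helicase Hrr1 and the nucleotidyltransferase Cid12, copies the nascent transcript into new double-stranded RNA. Eri1 is an exonuclease that degrades siRNAs and so limits the pathway.

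Total counts ranged from 10367168 to 15920802 per library, and the lowest and highest count of any RNAi gene in a library were 389 for chp1 and 2013 for hrr1. Libraries of the same genotype differed by more than sampling noise, with a chi-square per degree of freedom over genes of 2.75 to 6.08, and each was kept as a separate replicate. The genes named in the genotypes were checked first. In clr4oe, clr4 was at 284.2 and 273.3 CPM (read counts scaled to library size, with TMM factors), versus 53.7 to 60.9 CPM in the TetR-Mit1 libraries and 55.5 to 60.4 CPM in the K587A libraries. The mean CPM of mit1 was 386.1 ± 6.72 for TetR-Mit1 and 533.7 ± 14.2 for K587A (SD, n = 3 each), and 350.2 ± 9.16 for clr4oe (SD, n = 2). Versus TetR-Mit1, its fold change was 1.38 in K587A (edgeR adjusted p = 2.37e-11) and 0.907 in clr4oe (edgeR adjusted p = 0.0029). The K587A change and the mit1 transcript level thus differ together between K587A and TetR-Mit1 and cannot be told apart.

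Transcript levels of most RNAi genes differed little between the 3 genotypes, with chp1 differing the most. The ratio of the highest to the lowest genotype mean had a median of 1.11 over the 8 genes and ran from 1.03 for rdp1 to 1.37 for chp1. Over all 4887 tested genes its median was 1.27. In K587A versus TetR-Mit1, 1 of the 8 genes passed an adjusted p of 0.05 (edgeR quasi-likelihood test, Benjamini-Hochberg over all tested genes), and it was lower. Of all tested genes 52.3% passed, 27.3% higher and 25% lower. In clr4oe versus TetR-Mit1, 2 of the 8 passed, 1 higher and 1 lower, beside 65.1% of all tested genes, 32.1% higher and 33% lower. In clr4oe versus K587A, 4 of the 8 passed, 2 higher and 2 lower, beside 71.7% of all tested genes, 35.4% higher and 36.4% lower. The median absolute log2 fold change of the 8 genes was 0.0682, 0.0629 and 0.133 in these 3 comparisons, and that of all tested genes was 0.142, 0.224 and 0.28. No change of the 8 genes reached 1.5-fold. The 3 comparisons share libraries pairwise, so their values are given side by side and are not independent of each other.

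**Figure D1:**
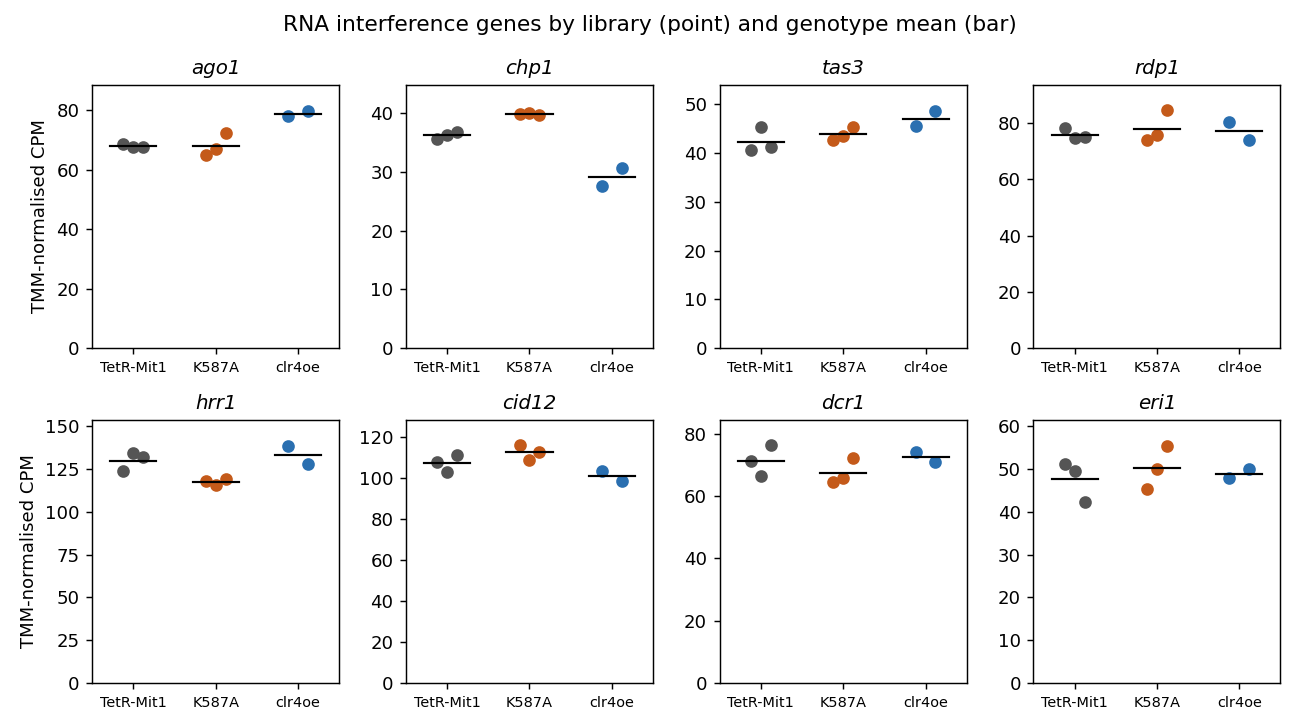
TMM-normalised CPM (y axis, from 0) of the 8 RNAi genes in each library (points) of TetR-Mit1, K587A and clr4oe (x axis), with bars at the genotype means. Chp1 is lowest in both clr4oe libraries, at 27.6 and 30.6 CPM, and ago1 is highest there, at 78.0 and 79.7 CPM, while rdp1 and eri1 overlap between all genotypes.

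The genes of the RITS complex did not move together in clr4oe. Ago1, whose product is the Argonaute that holds the siRNA, was at 68.5, 67.7 and 67.5 CPM in TetR-Mit1, at 64.8, 66.8 and 72.3 CPM in K587A, and at 78.0 and 79.7 CPM in clr4oe. Both clr4oe libraries lay above all 6 others, and the TetR-Mit1 and K587A libraries overlapped. Ago1 rose 1.16-fold in clr4oe over TetR-Mit1 (log2 fold change 0.22 ± 0.06 SE, edgeR adjusted p = 0.00263) and 1.16-fold over K587A (log2 0.22 ± 0.06 SE, edgeR adjusted p = 0.00215). In K587A versus TetR-Mit1 its fold change was 0.998, with a 95% interval from 0.923 to 1.08 (edgeR adjusted p = 0.962).

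Chp1, the chromodomain subunit that recognises methylated H3K9, changed in the opposite direction. It was at 35.6, 36.2 and 36.8 CPM in TetR-Mit1, at 39.9, 40.1 and 39.6 CPM in K587A, and at 27.6 and 30.6 CPM in clr4oe. No libraries of any pair of genotypes overlapped, with K587A highest and clr4oe lowest. Chp1 fell in clr4oe versus TetR-Mit1 by 0.31 on the log2 scale (SE 0.08, a fold change of 0.804, edgeR adjusted p = 0.00164). The size of that fall depended on the clr4oe library kept. Its log2 fold change was -0.24 without replicate 1 of clr4oe and -0.38 without replicate 2. Against K587A chp1 fell by 0.45 on the log2 scale (SE 0.08, a fold change of 0.73, edgeR adjusted p = 2.48e-05). That was the largest change of the 8 genes in any of the comparisons. The K587A libraries lay 1.1-fold above those of TetR-Mit1, but the difference did not pass the threshold (log2 0.14 ± 0.07 SE, edgeR adjusted p = 0.1). Even so, 63.7% of all tested genes had a smaller absolute change than chp1 in clr4oe versus TetR-Mit1, and 68.6% in clr4oe versus K587A, so larger changes than that of chp1 were common.

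Tas3, whose product joins Ago1 to Chp1, was at 40.7, 45.4 and 41.3 CPM in TetR-Mit1, at 42.7, 43.6 and 45.4 CPM in K587A, and at 45.5 and 48.7 CPM in clr4oe. The clr4oe libraries were the highest, but the lower of them was nearly level with the top library of each other genotype, and the other genotypes overlapped. Tas3 passed the threshold in none of the comparisons. Its fold change in clr4oe versus TetR-Mit1 was 1.11 with a 95% interval from 0.998 to 1.24 (edgeR adjusted p = 0.08). Without replicate 2 of TetR-Mit1, the highest of that genotype, the log2 fold change was 0.2 and passed (edgeR adjusted p = 0.0366).

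Ratios of counts within a library do not depend on how libraries are scaled. The ratio of chp1 to ago1 counts was 0.52 to 0.545 in the TetR-Mit1 libraries, 0.548 to 0.616 in K587A, and 0.354 and 0.385 in clr4oe. Its mean in clr4oe was 69.3% of that in TetR-Mit1. The ratio of chp1 to tas3 was likewise lower in both clr4oe libraries, at 0.608 and 0.628, than in the 6 others, at 0.798 to 0.936. The ratio of tas3 to ago1 was 0.625 ± 0.0398 in TetR-Mit1 (SD, n = 3), 0.646 ± 0.016 in K587A (SD, n = 3) and 0.597 ± 0.0204 in clr4oe (SD, n = 2), with overlapping libraries between TetR-Mit1 and each of the others. These ratios were computed after the values of the genes were seen and carry no test.

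**Figure D2:**
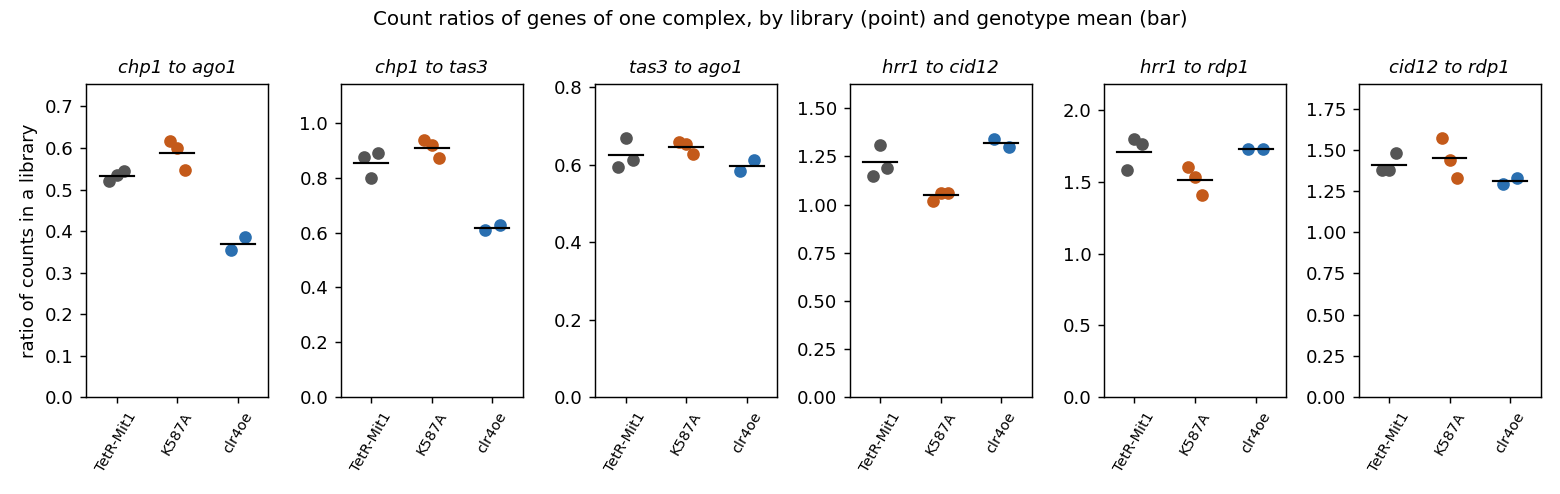
Ratio of the counts of genes of one complex in each library (points; y axis from 0, no unit) by genotype (x axis), with bars at the genotype means. The chp1 to ago1 and chp1 to tas3 ratios are lowest in clr4oe, at means of 0.369 and 0.618, and the hrr1 to cid12 ratio is lowest in K587A, at a mean of 1.05. The hrr1 to rdp1 and cid12 to rdp1 ratios overlap between K587A and TetR-Mit1.

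Among the genes of the RNA-directed RNA polymerase complex, hrr1 was the one that differed in K587A. Hrr1, the helicase gene, was at 123.7, 134.1 and 131.9 CPM in TetR-Mit1, at 118.2, 115.7 and 118.9 CPM in K587A, and at 138.7 and 127.9 CPM in clr4oe. The 3 K587A libraries were below all others, and clr4oe overlapped TetR-Mit1. Hrr1 fell in K587A versus TetR-Mit1 by 0.14 on the log2 scale (SE 0.05, a fold change of 0.905, edgeR adjusted p = 0.01). That call depends on 1 library: without replicate 2 of TetR-Mit1 the log2 fold change was -0.12 and the edgeR adjusted p = 0.057, in a range of 0.00474 to 0.057 over 13 alternatives. Hrr1 was 1.13-fold higher in clr4oe than in K587A (log2 0.18 ± 0.05 SE, edgeR adjusted p = 0.00239), a call lost without replicate 1 of clr4oe (log2 0.12, edgeR adjusted p = 0.0826, in a range of 0.000806 to 0.0826 over 12 alternatives). In clr4oe versus TetR-Mit1 its fold change was 1.03 with a 95% interval from 0.956 to 1.1 (edgeR adjusted p = 0.516).

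Cid12, the nucleotidyltransferase gene, was at 107.5, 102.7 and 110.9 CPM in TetR-Mit1, at 115.8, 108.8 and 112.6 CPM in K587A, and at 103.2 and 98.3 CPM in clr4oe. The K587A and clr4oe libraries did not overlap, and TetR-Mit1 lay between them and overlapped both. Cid12 was lower in clr4oe than in K587A by a log2 value of -0.16 ± 0.05 SE (a fold change of 0.896, edgeR adjusted p = 0.00944). Without replicate 2 of clr4oe this call was lost (log2 -0.11, edgeR adjusted p = 0.15, in a range of 0.000498 to 0.15 over 12 alternatives). Against TetR-Mit1 neither genotype passed the threshold, with fold changes of 1.05 in K587A (edgeR adjusted p = 0.214) and 0.941 in clr4oe (edgeR adjusted p = 0.144). In clr4oe that changed with the scaling: under upper-quartile scaling the log2 fold change was -0.14 and passed (edgeR adjusted p = 0.0212).

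Rdp1, the gene of the polymerase itself, was the most even of the 8. It was at 78.1, 74.5 and 74.9 CPM in TetR-Mit1, at 73.8, 75.6 and 84.5 CPM in K587A, and at 80.2 and 73.9 CPM in clr4oe. All genotypes overlapped, and the library farthest from the rest was replicate 3 of K587A, which has the lowest total count of the series. The 95% intervals of its fold change were 0.943 to 1.11 in K587A and 0.929 to 1.11 in clr4oe, each versus TetR-Mit1 (edgeR adjusted p = 0.647 and 0.762), and 0.907 to 1.09 in clr4oe versus K587A (edgeR adjusted p = 0.893). The ratio of hrr1 to cid12 counts was 1.22 ± 0.0808 in TetR-Mit1 and 1.05 ± 0.0225 in K587A (SD, n = 3 each). In clr4oe it was 1.32 ± 0.0305 (SD, n = 2). The K587A libraries, at 1.02 to 1.06, lay below all TetR-Mit1 libraries, at 1.15 to 1.31, and below both clr4oe libraries, at 1.3 and 1.34. The ratio of hrr1 to rdp1 overlapped, at 1.41 to 1.6 in K587A and 1.58 to 1.8 in TetR-Mit1. That of cid12 to rdp1 overlapped too, at 1.33 to 1.57 in K587A and 1.38 to 1.48 in TetR-Mit1. In clr4oe hrr1 to rdp1 was 1.73 in both libraries, and cid12 to rdp1 was 1.29 and 1.33. These ratios were not tested.

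The genes for making and degrading siRNAs passed the threshold in none of the comparisons in the fit without a replicate block. Dcr1, the Dicer gene, was at 71.3, 66.5 and 76.2 CPM in TetR-Mit1, at 64.6, 65.7 and 72.2 CPM in K587A, and at 74.1 and 70.8 CPM in clr4oe. All genotypes overlapped. Its fold change had a 95% interval from 0.864 to 1.03 in K587A (edgeR adjusted p = 0.231) and from 0.924 to 1.12 in clr4oe (edgeR adjusted p = 0.785), each versus TetR-Mit1. In clr4oe versus K587A the fold change was 1.08, with an interval from 0.98 to 1.19 (edgeR adjusted p = 0.146). There it passed with the replicate number as a block (log2 0.15, edgeR adjusted p = 0.0369), although the numbers are not known to pair the libraries. Eri1, the siRNA exonuclease gene, was at 51.2, 49.5 and 42.4 CPM in TetR-Mit1, at 45.4, 49.9 and 55.3 CPM in K587A, and at 48.0 and 49.9 CPM in clr4oe. Both clr4oe libraries fell inside the range of each other genotype. The coefficient of variation of eri1 within a genotype was 9.79% in TetR-Mit1 and 9.91% in K587A, the highest of the 8 genes in both, beside medians over all tested genes of 3.65% and 4.01%. Its intervals are accordingly wide, from 0.938 to 1.17 in K587A (edgeR adjusted p = 0.491) and from 0.909 to 1.16 in clr4oe (edgeR adjusted p = 0.715), each as a fold change versus TetR-Mit1. In clr4oe versus K587A its fold change was 0.98 (edgeR adjusted p = 0.772).

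**Figure D3:**
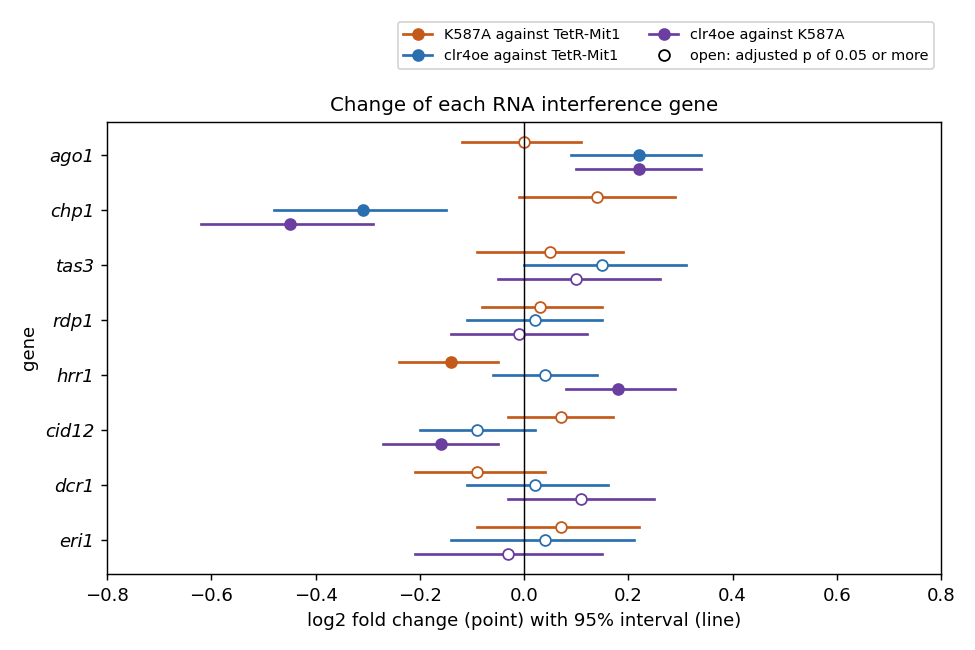
Log2 fold change of each RNAi gene (points) with its 95% interval (lines) in the 3 comparisons. Filled points passed an adjusted p of 0.05, namely ago1 and chp1 in both clr4oe comparisons, hrr1 in K587A versus TetR-Mit1, and hrr1 and cid12 in clr4oe versus K587A, and all points lie between -0.45 and 0.22.

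Set among all tested genes, 7 of the 8 lay below the median absolute change in each comparison. In clr4oe versus TetR-Mit1, the absolute log2 fold changes of dcr1, rdp1, hrr1 and eri1 exceeded those of 5.59%, 5.83%, 9.06% and 8.88% of tested genes. Ago1, although it passed the threshold, exceeded 48.5%. In K587A versus TetR-Mit1 the range over the 8 genes was from 1.33% for ago1 to 50.5% for hrr1. In clr4oe versus K587A it was from 1.86% for rdp1 to 68.6% for chp1.

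**Figure D4:**
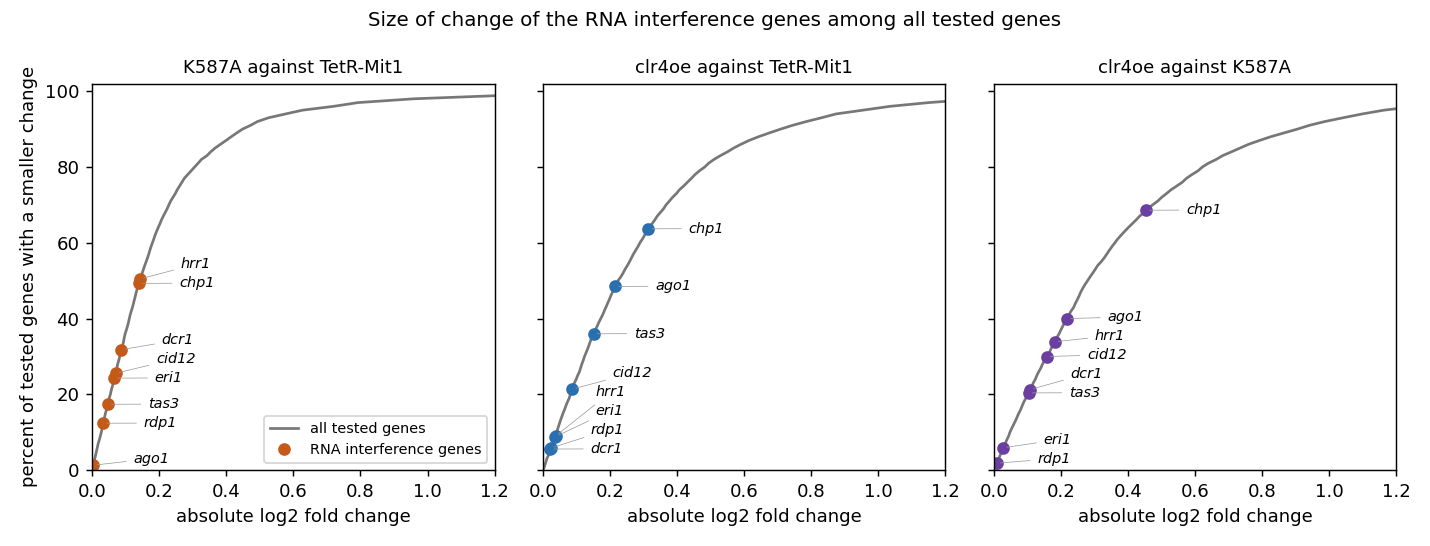
Percent of tested genes with a smaller change (y axis) versus the absolute log2 fold change (x axis, cut at 1.2) for all tested genes (line) and the 8 RNAi genes (points) in the 3 comparisons. Hrr1 is at 50.5% in K587A versus TetR-Mit1, and chp1 is the farthest along, at 63.7% in clr4oe versus TetR-Mit1 and 68.6% in clr4oe versus K587A.

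By exon length, all 8 RNAi genes lay below the median level of tested genes; by coding length, 7 of them did and cid12 lay above it. In TetR-Mit1, divided by the length of the annotated exons in kb, their CPM per kb ran from 10.2 to 28.1, and the median over 4885 tested genes with a length was 45.7. The order was hrr1 at 28.1 ± 1.19, ago1 at 25.9 ± 0.185, cid12 at 24.1 ± 0.929, eri1 at 20.8 ± 2.04, tas3 at 19.5 ± 1.17, rdp1 at 18.8 ± 0.494, dcr1 at 12.7 ± 0.859 and chp1 at 10.2 ± 0.165 CPM per kb (SD, n = 3 each). The libraries of the neighbours eri1, tas3 and rdp1 in this order overlapped, and those of the other neighbouring pairs did not. Chp1 was thus the least abundant RITS transcript in every genotype, at 10.2, 11.3 and 8.24 CPM per kb in TetR-Mit1, K587A and clr4oe, while ago1 was at 25.9, 25.9 and 30.1 and tas3 at 19.5, 20.2 and 21.7. By coding length in place of exon length, where the median over tested genes was 69.9, cid12 moved to the top at 106 ± 4.08 and eri1 to 53.4 ± 5.23 CPM per kb (SD, n = 3 each), because their annotated exons of 4435 and 2296 nt hold coding sequences of 1011 and 894 nt. The levels of cid12 and eri1 relative to the others are therefore uncertain. The last 4 places, tas3, rdp1, dcr1 and chp1, were the same by either length.

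The RNAi genes overlap other annotated genes, which may have affected their counts. In the RefSeq annotation each of the 8 overlaps between 1 and 3 annotated genes, all on the opposite strand. The strand setting of the authors' counting is not stated, so it is not known how reads from these overlaps were counted or left out. Dcr1 overlaps spn6, hrr1 overlaps dms1, cid12 overlaps naa50 and eri1 overlaps mmm1, in each case a neighbour that faces it tail to tail (a convergent pair). Cid12 overlaps 2 protein-coding genes, and the one besides naa50 was not examined. In all, 6 of the 8 have a convergent protein-coding neighbour and 4 overlap it, beside 54.5% and 32.7% of 5113 nuclear protein-coding genes. Tas3 and chp1 have none.

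Where an RNAi gene passed the threshold, its neighbours moved versus it in some cases and with it in others. In clr4oe versus TetR-Mit1, chp1 fell while the gene downstream of it on the same strand, aim18, rose (33.7 ± 3.32 CPM, SD, n = 3, to 84.5 ± 0.533 CPM, SD, n = 2). Its change was 2.51-fold (log2 1.33 ± 0.08 SE, edgeR adjusted p = 1.76e-13). On the other side, the divergent gene ypt3, which encodes a Rab GTPase, was raised 1.18-fold (log2 0.24 ± 0.04 SE, edgeR adjusted p = 6.26e-06). Against K587A, aim18 was higher by a log2 of 1.59 ± 0.08 SE (edgeR adjusted p = 4.64e-15), while ypt3 did not pass the threshold (log2 0.06 ± 0.04 SE, edgeR adjusted p = 0.208).

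Ago1 rose in clr4oe versus TetR-Mit1 while both its neighbours fell. These are the divergent gene mrps8, of a mitochondrial ribosomal protein (log2 -0.15 ± 0.06 SE, edgeR adjusted p = 0.0269), and the convergent gene mmi1, of an RNA-binding protein that marks meiotic transcripts for elimination (log2 -0.36 ± 0.07 SE, edgeR adjusted p = 7.31e-05). Both were also lower in clr4oe than in K587A, with log2 fold changes of -0.28 ± 0.06 SE for mrps8 (edgeR adjusted p = 0.000103) and -0.21 ± 0.07 SE for mmi1 (edgeR adjusted p = 0.011).

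Hrr1 and its divergent neighbour mrpl22, also of a mitochondrial ribosomal protein, were both lower in K587A than in TetR-Mit1 (for mrpl22, log2 -0.28 ± 0.06 SE, edgeR adjusted p = 0.000352). Mrpl22 was lower in clr4oe than in TetR-Mit1 as well (log2 -0.26 ± 0.07 SE, edgeR adjusted p = 0.0012), where hrr1 did not pass the threshold. Cid12 and both its neighbours were lower in clr4oe than in K587A: saf1 by a log2 value of -0.68 ± 0.10 SE (edgeR adjusted p = 2.47e-06), and naa50, the gene that overlaps cid12, by -0.2 ± 0.08 SE (edgeR adjusted p = 0.026). Whether reads of naa50, or of the other protein-coding gene that overlaps cid12, take part in the cid12 difference was not tested. Over all 16 neighbours, 7 passed the threshold in K587A versus TetR-Mit1, 10 in clr4oe versus TetR-Mit1 and 9 in clr4oe versus K587A, which is 43.8%, 62.5% and 56.2% of them, beside 52.3%, 65.1% and 71.7% of all tested genes. With only 16 neighbours these shares are coarse, and their difference from those of all tested genes was not tested.

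**Figure D5:**
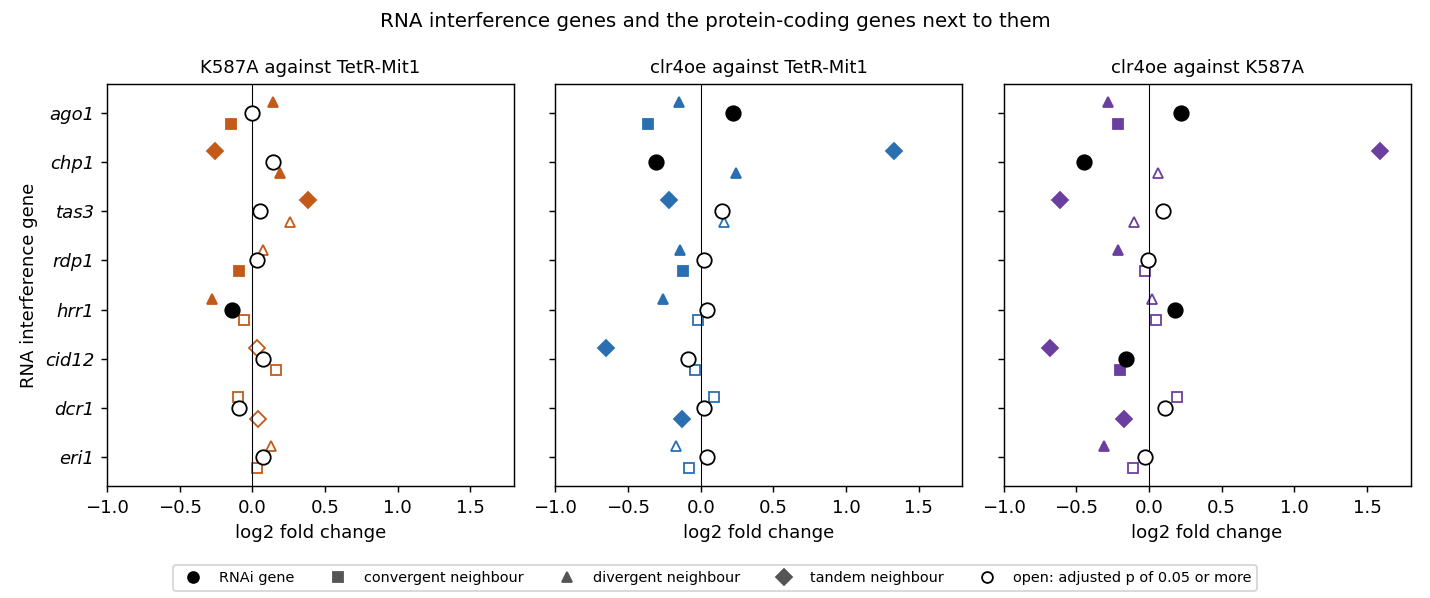
Log2 fold change (x axis) of each RNAi gene (circles) and of the annotated protein-coding gene on either side (squares convergent, triangles divergent, diamonds tandem) in the 3 comparisons; filled symbols passed an adjusted p of 0.05. Aim18, next to chp1, lies farthest out, at 1.33 and 1.59 in the clr4oe comparisons, on the opposite side of 0 from chp1 at -0.31 and -0.45.

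Other genes that work with the RNAi machinery were taken from a list of 8, of which 7 were measured and dsh1 was not analysed here. The list holds arb1 and arb2 of the Argonaute chaperone complex, stc1, whose product links RITS to the Clr4 complex, ers1, tri1, whose product trims Argonaute-bound RNAs, cid14 of the nuclear RNA-decay complex TRAMP, and mkt1. In K587A versus TetR-Mit1, 2 of the 7 rose and none fell, with a median log2 fold change of 0.152 beside 0.00579 for all tested genes. That is 28.6% of the list, beside 52.3% of all tested genes that passed and 27.3% that were higher. Under upper-quartile scaling 4 of the 7 passed, arb1 and arb2 in addition. Mkt1, at 175.4 ± 3.19 CPM in TetR-Mit1 and 223.8 ± 8.55 CPM in K587A (SD, n = 3 each), rose 1.27-fold (log2 0.35 ± 0.04 SE, edgeR adjusted p = 1.94e-08). Tri1, at 1171.6 ± 26.9 CPM in TetR-Mit1 and 1332.1 ± 30.1 CPM in K587A (SD, n = 3 each), rose by a log2 of 0.19 ± 0.04 SE (edgeR adjusted p = 9.41e-05).

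In clr4oe versus TetR-Mit1, again 2 of the 7 rose and none fell, with a median log2 change of -0.0147 beside -0.00258 for all tested genes. These are 28.6% of the list, while 65.1% of all tested genes passed and 32.1% were higher. Arb1, whose product binds Ago1 outside RITS, was at 48.6, 47.2 and 44.1 CPM in TetR-Mit1, at 51.2, 53.5 and 50.2 CPM in K587A, and at 63.8 and 73.3 CPM in clr4oe. Both clr4oe libraries were above all others. Arb1 rose 1.47-fold in clr4oe over TetR-Mit1 (log2 0.56 ± 0.07 SE, edgeR adjusted p = 2.07e-07), a larger change than that of any of the 8 core genes in this comparison. Tri1 rose 1.4-fold, to 1703.9 and 1587.6 CPM (log2 0.49 ± 0.04 SE, edgeR adjusted p = 4.08e-11). In clr4oe versus K587A, 5 of the 7 passed, or 71.4%, beside 71.7% of all tested genes. Higher were 2, arb1 (log2 0.4 ± 0.07 SE, edgeR adjusted p = 1.8e-05) and tri1 (log2 0.3 ± 0.04 SE, edgeR adjusted p = 1.49e-07). Lower there were 3, with mkt1 the largest (log2 -0.34 ± 0.04 SE, edgeR adjusted p = 8.01e-08). Arb2 and cid14, named here after their values were seen, were the others. Their calls were lost under RLE scaling, DESeq2, the filter of 10 counts in every library and the fit to the 2 groups. They were also lost with the replicate block, at an adjusted p under 0.01, and without K587A replicate 1 or K587A replicate 3. Each of these settings left 3 calls. With 1 clr4oe library left, both were lost without replicate 2 of clr4oe, and cid14 also without replicate 1.

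Other genes for chromodomain proteins that read the H3K9 mark were set beside chp1 and were chosen after their values were seen. Chp2, which like chp1 encodes a chromodomain protein, was at 19.5, 17.4 and 17.3 CPM in TetR-Mit1 and at 13.5 and 14.5 CPM in clr4oe. In K587A it was at 18.1, 18.5 and 19.7 CPM, overlapping TetR-Mit1, where the chp1 libraries did not overlap. In clr4oe versus TetR-Mit1 chp2 fell by 0.36 on the log2 scale (SE 0.12, edgeR adjusted p = 0.00807), beside 0.31 for chp1. Of all tested genes, 33% passed as lower in this comparison. Swi6, a further chromodomain protein gene, had a fold change of 1.04 (log2 0.06 ± 0.05 SE, edgeR adjusted p = 0.259).

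The gene most like each changed RNAi gene in pattern was sought among 4797 other genes averaging 5 CPM or more, by the Euclidean distance between log2 CPM profiles over the 8 libraries after centring each gene. Nearest to ago1 was syt22 (SPAC11E3.11c), at a distance of 0.0757, whose mean was 97.6 CPM in TetR-Mit1 (SD 3.56, n = 3) and in clr4oe 110.9 CPM (SD 1.29, n = 2). Nearest to chp1 was rsc9 (SPBC1703.02), of the RSC chromatin-remodelling complex, at a distance of 0.0941. Rsc9 was at 114.0 ± 2.15 CPM in TetR-Mit1, 121.9 ± 1.41 CPM in K587A (SD, n = 3 each), and its mean in clr4oe was 93.4 ± 3.75 CPM (SD, n = 2). Nearest to hrr1 was aah3 (SPCC63.02c), at 0.0679, and nearest to cid12 was SPAC26F1.08c, at 0.0841. The profiles rest on 8 libraries in 3 genotypes, and likeness is given as a description.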

How the data were processed

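The authors deposited raw, whole-number counts of reads for each gene in 8 columns, 1 per library; the headers carry STAR's gene-count suffix, per the file headers. STAR, SAMtools, DESeq2 and the build ASM294v2 are named in the submitters' processing notes. Annotation, versions, strand setting and filters are not given in the sources used here. Of clr4oe, replicate 3 was not analysed here. Symbols, gene order, strand and lengths came from RefSeq's annotation of ASM294v3, matched by identifier (4906 of 4915). That is not the build the notes name, so no coordinates or sequences are given.

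Genes were tested with edgeR 4.0.16 in R 4.3.3: filterByExpr (4887 kept, 28 removed), TMM scaling, and the quasi-likelihood F test in 1 fit of all 8 libraries with genotype as the factor, with Benjamini-Hochberg adjustment across every gene tested and a threshold of 0.05. CPM are TMM-normalised. The standard error is the absolute log2 fold change divided by the square root of F. The 95% intervals use the moderated degrees of freedom. The fit was tested on simulated data with known changes.

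Text names all 8 RNAi genes, mit1 and clr4 as checks, up to 3 listed RNAi-associated genes with the largest change among those past the threshold per comparison, neighbours that passed together with their RNAi gene, and the nearest gene in pattern. Also named are all listed RNAi-associated genes, the neighbours that overlap an RNAi gene, and arb1 and arb2 under upper-quartile scaling. Values of ypt3 versus K587A and of mrpl22 in clr4oe versus TetR-Mit1 are given outside the rule too. Other genes named outside this rule are marked in the text as chosen after their values were seen. The 8 genes and the lists were chosen with earlier results of these data known. Counts over a list of writers and readers of the H3K9 mark are not reported here. Alternatives were RLE and upper-quartile scaling, DESeq2 1.42.0, other filters, fits to the compared groups alone, a replicate block, stricter thresholds and removal of each library.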

Additional observations from a re-analysis of the deposited data

How the results depend on the processing

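The counts of RNAi genes that passed, 1 in K587A versus TetR-Mit1, 2 in clr4oe versus TetR-Mit1 and 4 in clr4oe versus K587A, stayed within 1.5 times under RLE and upper-quartile scaling, DESeq2, both other filters, the fits to 2 groups and the replicate block; DESeq2 gave 1, 2 and 4. With at least a 1.5-fold change required, 0 were left in each comparison (edgeR; 1, 2 and 4 at an unadjusted p under 0.05). At an adjusted p under 0.01, 0 were left in K587A versus TetR-Mit1. Leaving out 1 library gave 0 to 1, 2 to 3 and 3 to 4. Where clr4oe kept 1 library, it was assumed to vary like the other groups. Every call kept its direction in all alternatives run for it.

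For the 7 RNAi-associated genes, the counts were 2, 2 and 5. Upper-quartile scaling gave 4 in K587A versus TetR-Mit1. In clr4oe versus K587A, RLE scaling, DESeq2, the filter of 10 counts in every library, the fit to the 2 groups, the replicate block and an adjusted p under 0.01 each gave 3. The 1.5-fold requirement gave 0 in all 3 comparisons (edgeR; 5, 3 and 5 at an unadjusted p under 0.05). Leaving out 1 library gave 2 to 3, 2 to 2 and 3 to 5. The cause of these shifts was not tested.

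With the replicate number as a block, dcr1 also passed in clr4oe versus K587A (log2 0.15, edgeR adjusted p = 0.0369), for 5 RNAi genes in all; it changed no other call of the 8 genes. The numbers are not known to pair the samples, and the correlations of same-numbered deviations lay between -0.0951 and 0.0967.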
